A study of Mus musculus with 18 samples.

Results

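The genes described here make, clear and convert prostaglandins and leukotrienes, and were measured in mouse lung after thoracic irradiation. The members were listed by name, namely Hpgd, Ptgs1, Ptgs2, Ptges, Ptgis, Hpgds, Alox5, Alox5ap, Alox15 and Ltc4s, and the list of 10 was not drawn from a threshold on these values. It was chosen, however, with earlier results of these data known. A member was taken as measured where the platform annotation paired a probe set with that gene alone. By this rule 9 of the 10 genes had a probe set, 13 probe sets in all, among 18193 genes with a probe set of their own. A filter on dim probe sets kept 8 members among the 12412 genes tested. Alox15 was not kept and is described by its values. Ptgs1, which encodes cyclooxygenase 1, had no probe set paired with it alone and is not analysed here.

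Prostaglandins and leukotrienes are short-lived lipid signals made from arachidonic acid, which phospholipases free from membranes. Cyclooxygenases turn it into prostaglandin H2, from which terminal synthases make prostaglandin E2, prostaglandin D2, prostacyclin or thromboxane, while 5-lipoxygenase with its membrane partner turns it into leukotriene A4, the precursor of leukotriene B4 and of the cysteinyl leukotrienes. The lung is a main site where prostaglandins are taken up from the blood and inactivated by 15-hydroxyprostaglandin dehydrogenase. Prostacyclin widens lung vessels, and cysteinyl leukotrienes, made by mast cells, macrophages and eosinophils, narrow airways and make vessels leak.

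The study hybridised total RNA of the right lung to 1-colour oligonucleotide arrays, 18 in all, with 3 arrays in each of 6 groups. The irradiated groups, labelled sick, were A/J mice aged 30 to 32 weeks, C57BL6/J mice (usually written C57BL/6J) aged 28 to 30 weeks and C3H/HeJ mice aged 20 to 22 weeks. All had received 18 Gy of caesium-137 gamma rays to the whole thorax at 8 weeks of age, with lead over the rest of the body that let through 3% of the beam, and each was killed once moribund from weight loss and laboured breathing. The control groups were untreated A/J, C57BL6/J and C3H/HeJ mice aged 15 to 26 weeks. Irradiated A/J and C57BL6/J mice were therefore older than every control, and irradiation, time since exposure and the moribund state cannot be told apart in any strain. The labels describe the controls of a strain as 3 samples and do not say that each is a separate mouse, so p-values measure the spread between samples, which may be technical. Changes in RNA per cell and in the number of cells of a type cannot be told apart in whole lung.

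Values below are quantile-normalized signals as log2(signal + 7), and a gene is called where limma's two-sided test, adjusted by the Benjamini-Hochberg method over all 12412 genes, gave an adjusted p under 0.05. Fold changes are irradiated over control on this scale, which understates the changes of dim genes, with standard errors (SE). The trimmed mean of the deposited signals lay between 46.3 and 176 per array, and the number of arrays limits the precision. Surfactant and other alveolar type 2 genes, 9 of them tested, summed to 27400 to 35500 signal units in irradiated A/J and to values within that range in the 5 other groups, so the defining genes of the labelled tissue were present. Some arrays stood apart. The irradiated A/J arrays had ratios of 5' to 3' actin signal of 0.413, 0.551 and 0.528, against 0.735 ± 0.00605 in A/J controls (SD, n = 3) and group means of 0.709 to 0.745 elsewhere, and array 1 was also the lowest in the Gapdh ratio, at 0.294. In A/J, irradiation and these lower ratios therefore cannot be told apart. The squamous keratin Krt4 stood at 10.91 in irradiated A/J array 3 and at 11.52 and 11.75 in C57BL6/J controls 1 and 3. At 34 probe sets that differ between A/J and C3H/HeJ controls by more than 3 log2 units, irradiated C3H/HeJ array 3 lay at 0.52 on a scale from 0 for A/J controls to 1 for C3H/HeJ controls, where the other C3H/HeJ arrays lay at 0.96 to 1.01.

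The promoters of 3 members are shown because these members had the largest called changes of their branches, namely breakdown (Hpgd), cyclooxygenase (Ptgs2) and cysteinyl leukotriene synthesis (Ltc4s). The sequences are RefSeq's for GRCm38.p6, from 250 bases before to 30 bases after the annotated start, 5′ to 3′ on the gene's strand. Hpgd lies at chr8:56294302-56294581 (plus strand), Ptgs2 at chr1:150099781-150100060 (plus strand) and Ltc4s at chr11:50238503-50238782 (minus strand). Capitals mark letters that match a TATA box (TATAAA), a cAMP response core (CGTCA), a GC box (GGGCGG) or an AP-1 site (TGANTCA), searched on both strands.
Hpgd: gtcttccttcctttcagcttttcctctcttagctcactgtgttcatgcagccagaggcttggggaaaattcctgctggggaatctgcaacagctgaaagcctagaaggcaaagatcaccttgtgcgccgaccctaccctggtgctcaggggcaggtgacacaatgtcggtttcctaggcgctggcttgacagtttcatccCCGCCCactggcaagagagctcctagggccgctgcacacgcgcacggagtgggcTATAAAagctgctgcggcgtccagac
Ptgs2: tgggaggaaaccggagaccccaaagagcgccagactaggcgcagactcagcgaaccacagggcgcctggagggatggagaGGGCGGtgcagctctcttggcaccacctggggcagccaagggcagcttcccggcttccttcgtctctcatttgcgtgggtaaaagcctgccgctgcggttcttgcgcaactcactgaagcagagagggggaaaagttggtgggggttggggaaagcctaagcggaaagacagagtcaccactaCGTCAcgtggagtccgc
Ltc4s: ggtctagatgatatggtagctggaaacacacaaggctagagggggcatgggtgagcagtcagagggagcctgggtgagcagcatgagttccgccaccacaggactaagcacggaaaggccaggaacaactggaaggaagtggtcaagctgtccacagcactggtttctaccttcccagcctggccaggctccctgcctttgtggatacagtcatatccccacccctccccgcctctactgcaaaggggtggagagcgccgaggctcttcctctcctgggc
The Hpgd window held TATAAA at position 5, counted from 1 at the annotated start, and a GC box beginning at position -50, read on the other strand. The Ptgs2 window held CGTCA at position 14 and GGGCGG at position -170. The Ltc4s window held no match. Among all 32851 promoter windows of this length, 13.1% held TATAAA, 19.9% CGTCA, 34.7% GGGCGG and 7.46% TGANTCA, so such matches are common and describe the letters only. RefSeq windows were matched for 7 of the 10 members, and Ptgis, Alox5ap and Alox15 are named without one.

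Prostaglandin breakdown showed the steepest change of the members. Hpgd encodes 15-hydroxyprostaglandin dehydrogenase, which inactivates prostaglandin E2 and related prostaglandins by oxidising them, and its promoter was shown above. Its signal fell 8.18-fold in irradiated A/J lungs and 6.16-fold in irradiated C3H/HeJ lungs. In irradiated C57BL6/J lungs it was 2.19-fold lower and did not pass the test.

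In A/J, Hpgd read 9.81, 8.00 and 7.67 in irradiated arrays 1, 2 and 3, against 11.45, 11.61 and 11.52 in controls. All irradiated arrays lay below all controls, with array 1 nearest to them. The change was -3.03 ± 0.40 (SE, adjusted p = 7.32e-05), and it kept its call in every alternative run, at -3.69 to -2.42. In C3H/HeJ, the irradiated arrays read 8.74, 8.77 and 7.96, against 11.11, 11.14 and 11.09 in controls, again with a wide gap between the groups. The change was -2.62 ± 0.40 (SE, adjusted p = 0.000257).

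In C57BL6/J, Hpgd read 9.90, 10.61 and 10.88 in irradiated arrays, against 11.58, 11.57 and 11.63 in controls. The groups did not overlap, yet the change of -1.13 ± 0.40 (SE, 95% interval -1.97 to -0.28) had an adjusted p of 0.115. Of 30 alternatives 28 also left it uncalled, among them the fit of its 2 groups alone. The change was -1.11 without the 3 arrays high in keratins. It was called without both irradiated A/J array 1 and irradiated C3H/HeJ array 3 (adjusted p = 0.00405). It was also called without irradiated A/J array 1 alone, with an SE of 0.23 and an adjusted p of 0.00915. The difference between the C57BL6/J and A/J changes was 1.90 ± 0.56 (SE, adjusted p = 0.0617), and 1.52 without the 3 arrays high in keratins. With the replicate number as a block its adjusted p was 0.0863. It was 2.56 ± 0.34 without irradiated A/J array 1 (adjusted p = 0.000841) and 2.19 without irradiated C57BL6/J array 1 (adjusted p = 0.0415). Between C3H/HeJ and C57BL6/J the changes differed by -1.49 ± 0.56 (SE, adjusted p = 0.195), and without irradiated A/J array 1 the adjusted p was 0.0254. The C3H/HeJ and A/J changes differed by 0.41 (95% interval -0.79 to 1.61, adjusted p = 0.742), an interval wide enough for a sizeable difference, and by 1.33 without both irradiated A/J array 1 and irradiated C3H/HeJ array 3 (adjusted p = 0.0326).

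**Figure D1:**
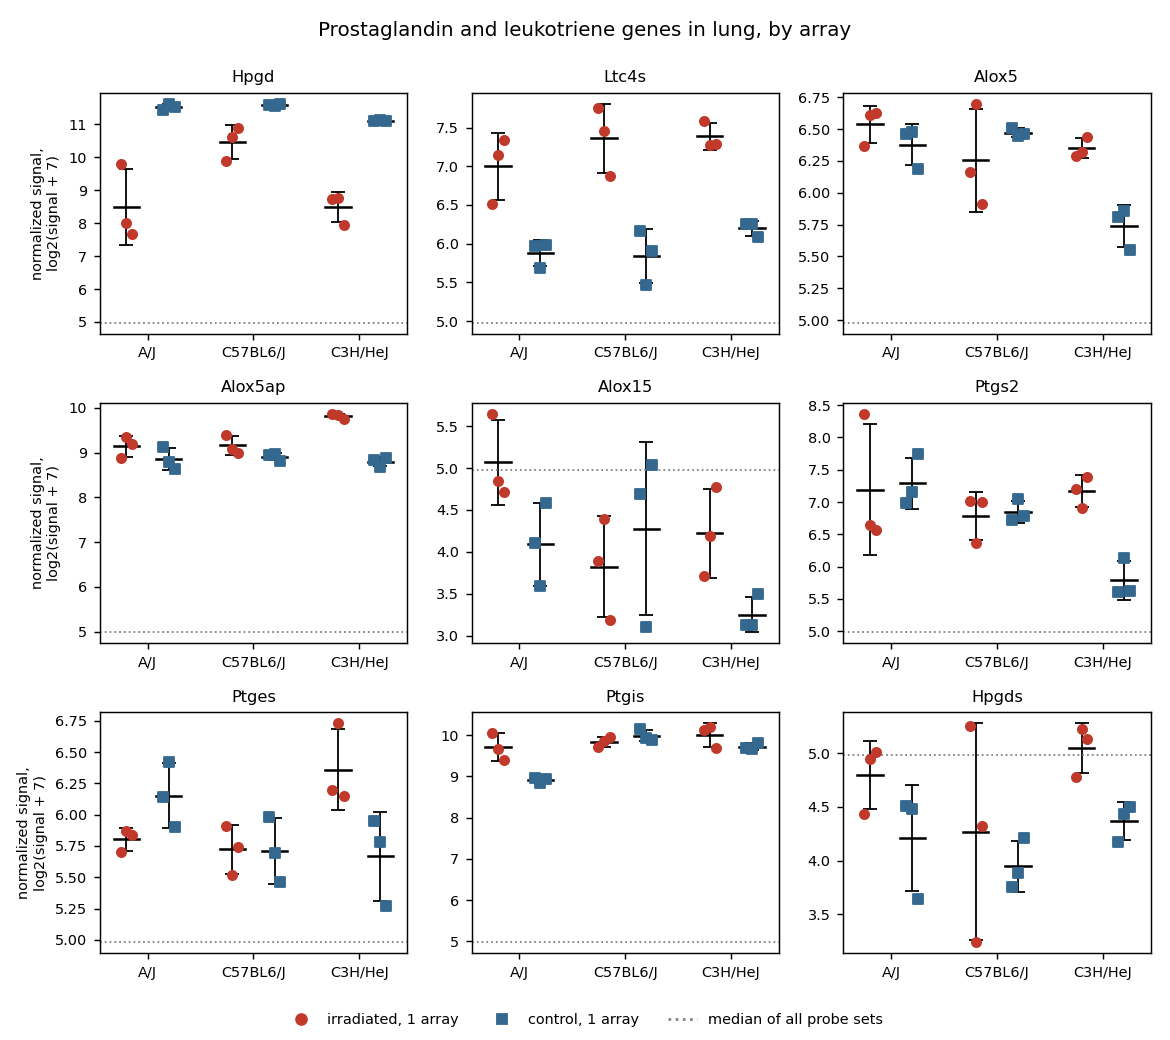
Normalized signal, log2(signal + 7), of the 8 tested members and of Alox15, 1 panel a gene, with 1 point for each array, irradiated arrays left of controls within each strain, horizontal lines at the group means, error bars of 1 SD (n = 3) and a dotted line at the median of all probe sets. Hpgd sits at 7.67 to 10.88 in irradiated arrays and at 11.09 to 11.63 in controls, and Ltc4s at 6.51 to 7.75 in irradiated arrays and 5.47 to 6.26 in controls.

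A second, dimmer probe set of Hpgd gave changes of the same sign in a fit over all 25746 kept probe sets. It fell by 2.70 on the log2 scale in A/J (SE 0.34, adjusted p = 4.71e-05) and by 2.12 in C3H/HeJ (SE 0.34, adjusted p = 0.000527). Every irradiated A/J and C3H/HeJ array lay below the overall median of all values, 4.98, at this probe set, while every control lay above it. In C57BL6/J the change was -1.05 ± 0.34 (SE, adjusted p = 0.114), again without overlap. In this fit the C57BL6/J change differed from the A/J change at both probe sets, by 1.90 at the brighter (adjusted p = 0.0478) and by 1.66 at the dimmer (adjusted p = 0.0439). The brighter Hpgd probe set is of a type that can match more than 1 transcript.

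Lower Hpgd went with lower endothelial marker genes. Of 10 such genes, 5 fell and 1 rose in irradiated A/J, 4 fell in irradiated C57BL6/J and 8 fell in irradiated C3H/HeJ. Their summed signal was 6540 to 9480 in irradiated A/J against 10600 to 11600 in A/J controls, 6300 to 8240 in irradiated C57BL6/J against 9540 to 10700 in C57BL6/J controls, and 5250 to 6130 in irradiated C3H/HeJ against 12400 to 13600 in C3H/HeJ controls. Within the irradiated arrays of each strain the order of the Hpgd values was the order of these sums: in A/J, for example, arrays 1, 2 and 3 summed to 9480, 6740 and 6540. The alveolar type 1 list, 9 genes, had 2 genes lower in irradiated A/J, none called in C57BL6/J and 3 lower in C3H/HeJ, with sums of 18800 to 24500 in irradiated A/J against 23200 to 24600 in controls, of 21200 to 21800 in irradiated C57BL6/J against 22400 to 23600 in controls, and of 20700 to 22400 in irradiated C3H/HeJ against 24000 to 25300 in controls. By the alveolar type 1 sums, irradiated A/J and C3H/HeJ arrays also took the order of Hpgd, while irradiated C57BL6/J arrays took the reverse order. In A/J, though not in the other strains, the trimmed mean signals of 176, 128 and 80.8 gave the Hpgd order too. Sums of neutrophil markers and of club and ciliated airway markers also took the Hpgd order in irradiated A/J and C57BL6/J, though not in C3H/HeJ. With 3 arrays a group few orders are possible, so a shared order does not single out a cell type. The part of endothelial or alveolar type 1 cells in the Hpgd values was not tested.

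Of the other genes of prostaglandin uptake and breakdown, 4 were tested. Slco2a1, the transporter that carries prostaglandins into cells ahead of Hpgd, changed by -0.19, -0.22 and -0.33 in A/J, C57BL6/J and C3H/HeJ and passed the test in none (adjusted p = 0.336, 0.402 and 0.0974). Ptgr1, a reductase that acts after Hpgd, fell by 0.64 in irradiated C57BL6/J (SE 0.12, adjusted p = 0.0071), where it read 8.69, 8.26 and 8.40 against 9.24, 8.95 and 9.07 in controls. That call was lost with no scaling (-0.57), after median centring (adjusted p = 0.0585), with the 2 groups alone (0.0916) and without the 3 arrays high in keratins (-0.51, adjusted p = 0.366). Abcc4, which can export prostaglandins, rose by 0.76 in irradiated A/J (SE 0.23, adjusted p = 0.0239), with 6.58, 7.32 and 7.70 against 6.40, 6.50 and 6.41 in controls. Leaving out irradiated A/J array 3, the highest, gave 0.51 (adjusted p = 0.11), and leaving out irradiated array 2 or any A/J control also ended the call (0.052 to 0.0752), as did the 2 groups alone (0.0844) and leaving out the 3 arrays high in keratins (0.51, adjusted p = 0.108).

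Of the prostaglandin synthesis members, Ptgs2 and Ptges were called in C3H/HeJ, Ptgis in A/J and Hpgds in no strain. Ptgs2 encodes cyclooxygenase 2, the inducible enzyme at the head of the prostanoid branch. It rose 2.59-fold in irradiated C3H/HeJ lungs, where controls averaged lower than those of A/J and C57BL6/J. It passed the test in neither A/J nor C57BL6/J.

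Ptgs2 read 7.20, 6.90 and 7.39 in irradiated C3H/HeJ arrays, against 5.61, 6.14 and 5.62 in C3H/HeJ controls. The groups were clearly apart, and the change was 1.37 ± 0.37 (SE, adjusted p = 0.0135), with an adjusted p of 0.0517 without irradiated array 3, the one that lay between strains. In A/J the irradiated arrays read 8.37, 6.65 and 6.56, against 6.98, 7.15 and 7.74 in controls. Array 1 was above every control and the other irradiated arrays below them, so the mean change of -0.10 ± 0.37 (SE, adjusted p = 0.871) changed sign with the scaling and with the arrays left out. In C57BL6/J the irradiated arrays read 7.01, 6.36 and 7.0, against 6.72, 7.04 and 6.79 in controls, and the groups overlapped (-0.06 ± 0.37, SE, adjusted p = 0.951, of either sign across scalings).

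Untreated lungs already differed in Ptgs2. C3H/HeJ controls, at 5.79 ± 0.30, lay below A/J controls, at 7.29 ± 0.40 (SD, n = 3 each), by 1.50 on the log2 scale (SE 0.37, adjusted p = 0.0283). That call was lost when A/J control 2 or 3, or C3H/HeJ control 1 or 3, was left out, with adjusted p of 0.067 to 0.127. Against C57BL6/J controls, at 6.85 ± 0.17 (SD, n = 3), the C3H/HeJ controls were lower, a difference of -1.06 ± 0.37 (SE, adjusted p = 0.0781), which was called without irradiated A/J array 1 (adjusted p = 0.00586). Irradiated C3H/HeJ arrays thus reached the range that untreated A/J and C57BL6/J arrays spanned, 6.72 to 7.74. The change in C3H/HeJ exceeded that in A/J by 1.47 ± 0.52 (SE, adjusted p = 0.161), and by 1.15 without the 3 arrays high in keratins. With the replicate number as a block the adjusted p was 0.262. Without irradiated A/J array 1 the excess was 2.06 (adjusted p = 0.0102). Against the C57BL6/J change the excess was 1.43 ± 0.52 (SE, adjusted p = 0.177), with an adjusted p of 0.0281 without that A/J array.

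The second Ptgs2 probe set changed by 1.00 ± 0.34 in C3H/HeJ (SE, adjusted p = 0.0539 over all kept probe sets), just outside the threshold. Its changes were -0.09 in A/J and 0.29 in C57BL6/J. C3H/HeJ controls lay below A/J controls here as well, by 1.46 on the log2 scale (adjusted p = 0.0214). A strain difference at an array probe set can also come from sequence differences under the probes, which were not tested.

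Ptges encodes the microsomal prostaglandin E synthase that works with cyclooxygenase 2. At the probe set used in the fit it read 6.20, 6.73 and 6.15 in irradiated C3H/HeJ, against 5.95, 5.78 and 5.27 in controls. All irradiated arrays were above all controls, and the 1.61-fold rise (0.69 ± 0.20, SE, adjusted p = 0.0205) lost its call without irradiated array 2 (0.50, adjusted p = 0.103), without control 3 (0.49, adjusted p = 0.0988) and in a fit of these 2 groups alone (adjusted p = 0.0679). In A/J it read 5.70, 5.87 and 5.84 in irradiated arrays, against 6.14, 6.42 and 5.90 in controls, lower without overlap but not called (-0.35 ± 0.20, SE, adjusted p = 0.223). In C57BL6/J the change was 0.01 ± 0.20 (SE, adjusted p = 0.981).

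The 3 probe sets of Ptges did not move alike. The second gave 0.83 ± 0.20 in C3H/HeJ (SE, adjusted p = 0.00896), and 0.49 in A/J and 0.46 in C57BL6/J (adjusted p = 0.0847 and 0.252). The third, with its lowest values below the overall median, gave 0.33, 0.02 and -0.28 in C3H/HeJ, A/J and C57BL6/J, none called. The sign in A/J thus depended on the probe set, and it also turned at the first probe set when no scaling was applied. All 3 had positive changes in C3H/HeJ, 2 of them called. Over the 12 kept member probe sets, 4 were called in A/J, 1 in C57BL6/J and 8 in C3H/HeJ, where 25.2%, 2.92% and 18.4% of all kept probe sets were.

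**Figure D2:**
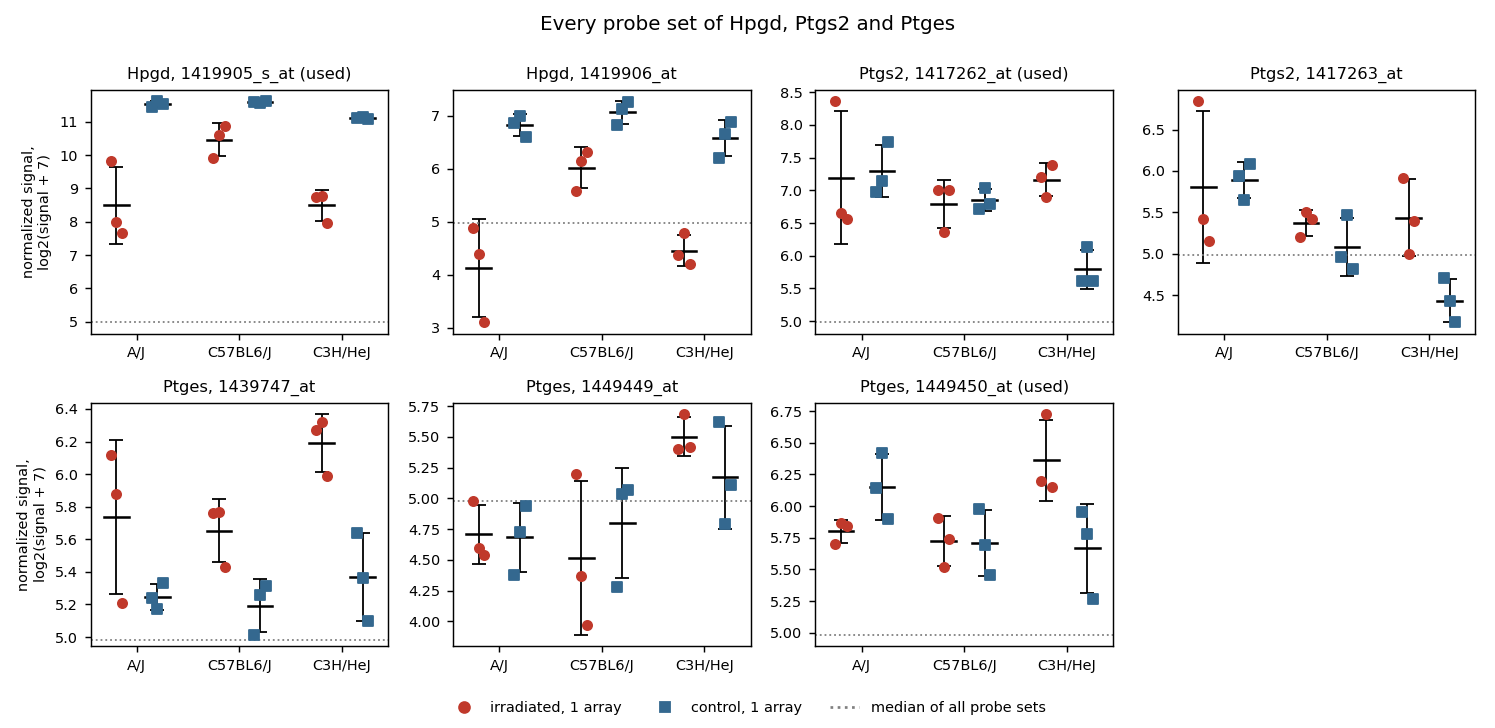
Normalized signal, log2(signal + 7), at every probe set of Hpgd, Ptgs2 and Ptges, 1 panel a probe set, with 1 point for each array, irradiated left of control in each strain, horizontal lines at the group means, error bars of 1 SD (n = 3), a dotted line at the median of all probe sets and the probe set of the fit over genes marked as used. Irradiated A/J and C3H/HeJ arrays lie below controls at both Hpgd probe sets, while irradiated A/J arrays lie below controls at 1 Ptges probe set (5.70 to 5.87 against 5.90 to 6.42) and span 5.21 to 6.12 against 5.17 to 5.33 in controls at another.

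Ptgis encodes prostacyclin synthase, the last step to prostacyclin, which relaxes vessels and keeps platelets from clumping. It rose 1.72-fold in irradiated A/J lungs. It read 10.06, 9.67 and 9.39 in irradiated A/J arrays, against 8.97, 8.85 and 8.94 in controls, with no overlap (0.78 ± 0.16, SE, adjusted p = 0.00225). The A/J controls were the lowest of all groups. Irradiated A/J arrays 1 and 2 lay within the span of the controls of the other strains, 9.67 to 10.14, and array 3 lay below it.

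In C57BL6/J Ptgis read 9.72, 9.85 and 9.96 in irradiated arrays, against 10.14, 9.93 and 9.89 in controls, which overlapped (-0.14 ± 0.16, SE, adjusted p = 0.681). In C3H/HeJ it read 10.13, 10.20 and 9.68 in irradiated arrays, against 9.68, 9.67 and 9.82 in controls. Irradiated array 3 stood with the controls there, and the change of 0.28 ± 0.16 (SE, adjusted p = 0.223) became 0.44 (adjusted p = 0.0179) when that array and irradiated A/J array 1 were left out. It was also called with no scaling (1.03, adjusted p = 0.0191) and after median centring (0.66, adjusted p = 0.0272).

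Untreated C57BL6/J lungs exceeded untreated A/J lungs in Ptgis by 1.06 ± 0.16 (SE, adjusted p = 0.000325, and 0.136 with no scaling), at 9.99 ± 0.14 against 8.92 ± 0.06 (SD, n = 3 each). Untreated C3H/HeJ lungs, at 9.72 ± 0.08 (SD, n = 3), exceeded them by 0.80 ± 0.16 (SE, adjusted p = 0.00752), a call lost with no scaling (0.38, adjusted p = 0.519) and after median centring (0.67, adjusted p = 0.106). The C3H/HeJ and C57BL6/J controls differed by -0.26 (95% interval -0.60 to 0.07, adjusted p = 0.328). The change in C57BL6/J was smaller than that in A/J by 0.93 on the log2 scale (difference -0.93 ± 0.22, SE, adjusted p = 0.0256). Ptgis was the 1 member of 8 called for this difference in the fit over genes, where 5.45% of all genes were, while in the fit over all probe sets both Hpgd probe sets were called too. For the Ptgis difference the adjusted p with no scaling was 0.121 (-1.44). With the replicate number as a block it was 0.0743, without the 3 arrays high in keratins it was 0.0907, and it lay at 0.0518 to 0.0695 without A/J control 2, C57BL6/J control 1 or C57BL6/J irradiated array 1 or 2.

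Beside the Ptgis rise in A/J, smooth muscle markers summed to 2860 to 4120 in irradiated A/J against 1950 to 2670 in controls, with 2 of 6 genes higher. Fibroblast markers summed to 10500 to 11000 in irradiated A/J against 6080 to 6230 in controls, with 4 of 8 higher. In C3H/HeJ the fibroblast sum was likewise above controls, at 11400 to 12600 against 6740 to 7000 (4 of 8 higher, 1 lower), while the smooth muscle sums overlapped. In C57BL6/J, where the Ptgis change was -0.14 and not called, smooth muscle markers summed to 1950 to 2890 in irradiated arrays against 3080 to 3530 in controls (1 of 6 lower), and fibroblast markers to 6260 to 8980 against 5570 to 6930 (2 of 8 higher). The part of these cells in the Ptgis values was not tested.

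Hpgds encodes the hematopoietic prostaglandin D synthase of mast cells and some other immune cells. It was near the bottom of the measured range: 4 irradiated arrays, 1 in A/J, 1 in C57BL6/J and 2 in C3H/HeJ, lay above the overall median and no control did, so it entered the test only through irradiated arrays. In C3H/HeJ it read 4.78, 5.22 and 5.13 in irradiated arrays, against 4.17, 4.43 and 4.50 in controls, without overlap (0.68 ± 0.37, SE, adjusted p = 0.196). It read 4.43, 4.94 and 5.01 in irradiated A/J against 4.51, 4.48 and 3.64 in A/J controls (0.58 ± 0.37, SE, adjusted p = 0.269). In C57BL6/J the irradiated arrays spanned 3.24 to 5.25, wider than the controls' 3.75 to 4.21 (0.32 ± 0.37, SE, adjusted p = 0.688). No change was detectable at these signals, apart from C3H/HeJ under 2 alternatives, no scaling (adjusted p = 0.0291) and a fit of the 2 groups alone (adjusted p = 0.0218).

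Of the members tested, Ltc4s was the 1 called in all strains. It encodes leukotriene C4 synthase, which joins leukotriene A4 to glutathione and so commits it to the cysteinyl leukotrienes. It rose 2.17-fold in irradiated A/J, 2.86-fold in irradiated C57BL6/J and 2.28-fold in irradiated C3H/HeJ. Its promoter window, shown above, held none of the motifs searched.

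In A/J, Ltc4s read 6.51, 7.15 and 7.34 in irradiated arrays, against 5.97, 5.69 and 5.98 in controls (1.12 ± 0.23, SE, adjusted p = 0.00269). In C57BL6/J it read 7.75, 7.46 and 6.87 in irradiated arrays, against 6.16, 5.47 and 5.91 in controls (1.51 ± 0.23, SE, adjusted p = 0.00198). In C3H/HeJ it read 7.59, 7.28 and 7.29 in irradiated arrays, against 6.26, 6.25 and 6.09 in controls (1.19 ± 0.23, SE, adjusted p = 0.00189). Every irradiated array of all strains was above every control of all strains. Over genes, the 1 call lost across the alternatives was that of C57BL6/J in a fit of its 2 groups alone (1.51, adjusted p = 0.0573). Over all kept probe sets, C57BL6/J had 0 member probe sets called with its 2 groups alone and without the 3 arrays high in keratins, against 1, Ltc4s, with all arrays in 1 fit.

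The size of the Ltc4s rise did not differ detectably between strains. The difference was 0.40 for C57BL6/J minus A/J (95% interval -0.30 to 1.10, adjusted p = 0.521), 0.07 for C3H/HeJ minus A/J (-0.63 to 0.77, adjusted p = 0.936) and -0.33 for C3H/HeJ minus C57BL6/J (-1.03 to 0.37, adjusted p = 0.673). These intervals reach about 1 log2 unit, so a difference of that size is not shown to be absent. Untreated strains lay close together, at 5.88, 5.85 and 6.20 in A/J, C57BL6/J and C3H/HeJ controls, with no call between them. Ltc4s was the only one of the 8 tested members called in C57BL6/J, where 5.35% of all genes were called (2.99% higher and 2.36% lower).

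Markers of the cells that make cysteinyl leukotrienes moved unequally with Ltc4s. Of 10 mast cell genes, 7 were higher and 1 lower in irradiated A/J, 7 higher and 2 lower in irradiated C3H/HeJ, and 1 higher and 1 lower in irradiated C57BL6/J. The mast cell sum was 1960 to 3080 in irradiated A/J against 1200 to 1350 in controls and 1080 to 1880 in irradiated C3H/HeJ against 928 to 1010 in controls, and 728 to 777 in irradiated C57BL6/J against 951 to 1020 in controls. The mean of the 10 genes on the log2 scale, to which bright genes contribute less, was 5.33 to 5.85 in irradiated C57BL6/J against 4.96 to 5.38 in controls, higher with overlap where the sums were lower without it. The mean was 7.44 to 8.08 in irradiated A/J against 5.47 to 6.11 in controls and 6.65 to 7.45 in irradiated C3H/HeJ against 5.10 to 5.30 in controls. Tpsab1 and Ms4a2 were near background in irradiated C57BL6/J arrays, and Cpa3, Tpsb2, Mcpt4 and Fcer1a as well in C57BL6/J controls. Tpsab1, Ms4a2 and Fcer1a were likewise near background in A/J controls, and Cpa3, Tpsb2, Mcpt4, Ms4a2 and Fcer1a in C3H/HeJ controls. No gene of the list was near background throughout the irradiated A/J or the irradiated C3H/HeJ arrays. Of 10 macrophage genes, 7 were higher in irradiated A/J, 2 in irradiated C57BL6/J and 8 in irradiated C3H/HeJ, and none fell.

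The macrophage sum was 4600 to 8970 in irradiated A/J against 3530 to 3730 in controls, 6210 to 11200 in irradiated C57BL6/J against 5970 to 6070 in controls, and 7220 to 8860 in irradiated C3H/HeJ against 4260 to 4850 in controls. In irradiated A/J and C57BL6/J the arrays took the same order by this sum as by Ltc4s, and in C3H/HeJ they did not. By the mast cell sum they did so in no strain, and in A/J the order was reversed, at 3080, 2450 and 1960. By the mast cell mean on the log2 scale they did so in C57BL6/J alone, at 5.85, 5.41 and 5.33. Of the 6 eosinophil genes listed, 1 was tested, Siglecf, which alveolar macrophages also express. It was lower in irradiated A/J, at 15.8 to 46 signal units against 73.9 to 94.3 in controls, and in irradiated C3H/HeJ, at 23.7 to 46.8 against 75.5 to 115. It was not called in C57BL6/J, at 53.7 to 93.8 in irradiated arrays against 61.7 to 83.7 in controls. Epx, Prg2, Ccr3, Ear1 and Ear2 were not kept or had no probe set of their own. The part of any of these cells in the Ltc4s values was not tested.

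Alox5ap encodes the membrane protein that hands arachidonic acid to 5-lipoxygenase. It read 9.86, 9.84 and 9.76 in irradiated C3H/HeJ arrays, against 8.83, 8.68 and 8.87 in controls. The gap was wide beside the spread within either group, and the rise was 2.03-fold (1.02 ± 0.14, SE, adjusted p = 0.000128). In A/J it read 8.88, 9.34 and 9.20 in irradiated arrays, against 9.13, 8.79 and 8.64 in controls, where irradiated array 1 lay among the controls (0.29 ± 0.14, SE, adjusted p = 0.156). That A/J change was called after median centring (0.64, adjusted p = 0.00482) and with arrays weighted by quality (0.41, adjusted p = 0.0164).

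In C57BL6/J, Alox5ap read 9.39, 9.09 and 9.0 in irradiated arrays, against 8.94, 8.97 and 8.82 in controls, without overlap but not called (0.25 ± 0.14, SE, adjusted p = 0.358). The C3H/HeJ change exceeded the A/J change by 0.73 ± 0.20 (SE, adjusted p = 0.082) and the C57BL6/J change by 0.77 ± 0.20 (SE, adjusted p = 0.0651), both short of the threshold. The second was called without irradiated A/J array 1 (adjusted p = 0.0363) or irradiated C57BL6/J array 1 (0.0288).

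Alox5 encodes 5-lipoxygenase, which starts all leukotriene synthesis. It read 6.29, 6.32 and 6.44 in irradiated C3H/HeJ arrays, against 5.81, 5.86 and 5.55 in controls, a 1.53-fold rise without overlap (0.61 ± 0.16, SE, adjusted p = 0.012). Without C3H/HeJ control 3, the lowest, it was 0.52 (adjusted p = 0.0539). In A/J it read 6.37, 6.61 and 6.63 in irradiated arrays, against 6.46, 6.48 and 6.19 in controls, which overlapped (0.16 ± 0.16, SE, adjusted p = 0.5). In C57BL6/J it read 6.16, 6.70 and 5.91 in irradiated arrays, on both sides of the controls' 6.51, 6.45 and 6.46 (-0.21 ± 0.16, SE, adjusted p = 0.509).

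Untreated C3H/HeJ lungs had less Alox5 signal than untreated A/J lungs, by 0.64 on the log2 scale (SE 0.16, adjusted p = 0.0324), and than untreated C57BL6/J lungs, by 0.73 (SE 0.16, adjusted p = 0.00757). Without the 3 arrays high in keratins these calls were lost, with adjusted p of 0.0628 and 0.159, and the first also ended without A/J control 1 or 2 or C3H/HeJ control 1 or 3 (0.0719 to 0.125) and with no filter (0.0603). With no scaling neither was called (0.122 and 0.132). The irradiated C3H/HeJ arrays thus lay within the range of A/J and C57BL6/J controls, as they did for Ptgs2. The change in C3H/HeJ exceeded that in C57BL6/J by 0.83 ± 0.23 (SE, adjusted p = 0.0812), and by 1.05 without irradiated C57BL6/J array 2 (adjusted p = 0.0166).

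**Figure D3:**
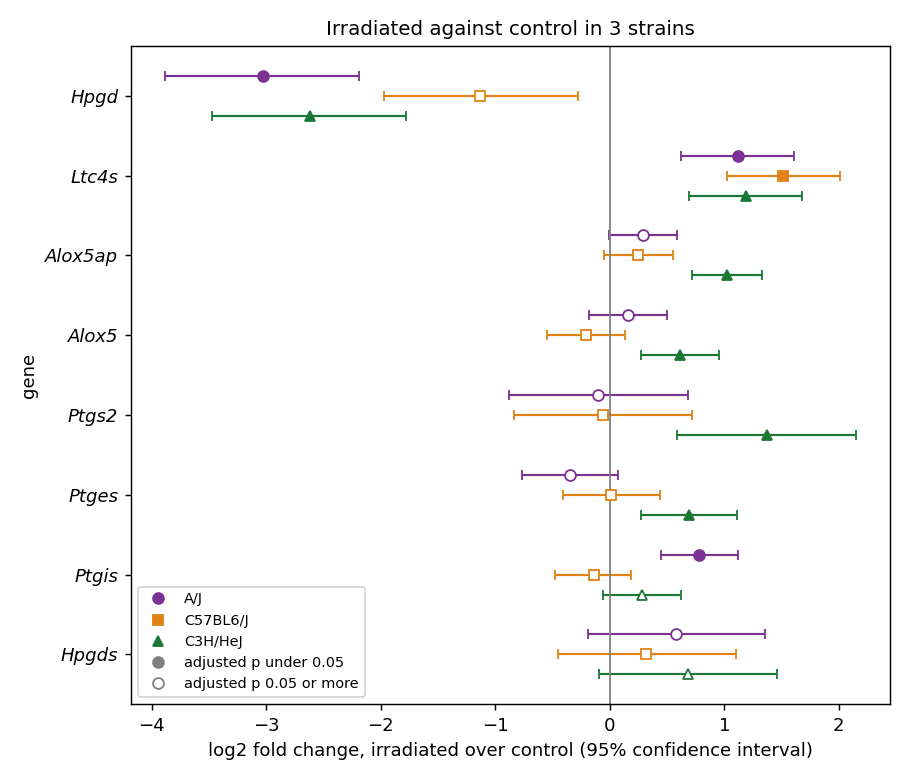
Log2 fold change, irradiated over control, of each tested member in A/J, C57BL6/J and C3H/HeJ, with bars for the 95% interval and open symbols where the adjusted p is 0.05 or more. Ltc4s is filled above 0 in every strain at 1.12 to 1.51, Hpgd is filled below 0 in A/J and C3H/HeJ, and Ptgs2, Ptges, Alox5 and Alox5ap are filled in C3H/HeJ alone, without a called difference between strains.

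Alox15 encodes the 12/15-lipoxygenase of eosinophils and some macrophages in mice. Its only probe set was above the overall median in 2 of 18 arrays, irradiated A/J array 1 at 5.65 and C57BL6/J control 3 at 5.04. The other irradiated A/J arrays read 4.84 and 4.71, against 4.11, 3.59 and 4.58 in A/J controls. In C3H/HeJ it read 3.71, 4.19 and 4.77 in irradiated arrays, against 3.13, 3.13 and 3.50 in controls. Both strains showed higher values without overlap, at signals close to the floor. In a fit of all 18193 genes without the filter the change was 0.97 ± 0.45 in A/J, -0.45 ± 0.45 in C57BL6/J and 0.97 ± 0.45 in C3H/HeJ (SE, adjusted p = 0.189, 0.721 and 0.186).

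Across the 8 tested members, 2 rose and 1 fell in irradiated A/J, against 24.1% of all genes called (15.1% higher and 8.95% lower), and the groups did not overlap for 4 members, against 40.4% of all genes. In C57BL6/J 1 rose, against 5.35% of all genes called (2.99% higher and 2.36% lower), and 3 did not overlap, against 24.3% of all genes. In C3H/HeJ 5 rose and 1 fell, against 23.5% of all genes called (12.8% higher and 10.6% lower), and 7 did not overlap, against 40.3%. The counts in A/J and C57BL6/J were little above those shares, with the call in C57BL6/J being 1 gene, Ltc4s. The count in C3H/HeJ was further above them. The counts are descriptions, since the members were chosen with earlier results of these data known and Hpgds passed the filter only through irradiated arrays. The median change of the members was 0.23 in A/J, -0.02 in C57BL6/J and 0.69 in C3H/HeJ, beside 0.09, -0.01 and 0.01 over all genes.

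Of the differences between strains in these changes, none of the 8 members was called for C3H/HeJ minus A/J, where 1.06% of all genes were called. At an unadjusted p under 0.05 there were 4 of 8 members, against 17.9% of all genes. For C3H/HeJ minus C57BL6/J none was called in limma, where 1.6% of all genes were, and 5 had an unadjusted p under 0.05, against 16.3% of all genes. Between untreated strains, 1 member (Ptgis) differed for C57BL6/J minus A/J, 3 (Ptgis, Ptgs2 and Alox5) for C3H/HeJ minus A/J and 1 (Alox5) for C3H/HeJ minus C57BL6/J, beside 10.4%, 4.5% and 10.8% of all genes.

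The wider pathway was described through 61 further genes, of which 54 had a probe set of their own and 40 were tested. In irradiated A/J 8 rose and none fell, in irradiated C57BL6/J 1 fell, and in irradiated C3H/HeJ 5 rose and 3 fell. In A/J 20% of the pathway genes were higher, against 15.1% of all genes, and 0% lower, against 8.95%. In C57BL6/J 2.5% were lower, against 2.36% of all genes. In C3H/HeJ 12.5% were higher, against 12.8%, and 7.5% lower, against 10.6%. The median change of the 40 genes was 0.13, 0.00 and 0.08.

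Of 6 tested receptors for prostanoids, 3 rose in A/J and the same 3 in C3H/HeJ, where 15.1% and 12.8% of all genes were higher, and none was called in C57BL6/J. The 3 were Ptger4 and Ptger2, receptors for prostaglandin E2 that raise cyclic AMP, and Ptgir, the prostacyclin receptor. Ptger4 read 7.94, 7.40 and 7.64 in irradiated A/J against 6.94, 6.41 and 6.70 in controls (0.98 ± 0.18, SE, adjusted p = 0.00135). In C3H/HeJ it read 8.37, 8.17 and 8.22 in irradiated arrays against 6.70, 6.75 and 6.81 in controls (1.49 ± 0.18, SE, adjusted p = 4.74e-05). Both groups were apart in each of these strains and, at 7.77, 7.16 and 7.20 against 6.83, 6.99 and 6.48, also in C57BL6/J, where the change of 0.61 ± 0.18 (SE, adjusted p = 0.068) missed the threshold, which it just passed without irradiated A/J array 1 (0.0499). No difference between strains in the Ptger4 change was called, the nearest being C3H/HeJ minus C57BL6/J at 0.88 (adjusted p = 0.106).

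Ptger2 rose by 0.75 in A/J (SE 0.13, adjusted p = 0.000941) and by 0.52 in C3H/HeJ (SE 0.13, adjusted p = 0.0113, and 0.0528 without irradiated array 1). Untreated A/J lungs had less Ptger2 signal than untreated C57BL6/J lungs, by 0.45 (adjusted p = 0.0419), and than untreated C3H/HeJ lungs, by 0.60 (adjusted p = 0.0157). Irradiated A/J arrays read 7.01, 7.14 and 7.01, where C57BL6/J controls reached 7.01 and C3H/HeJ controls 7.03. Ptgir rose by 0.66 in A/J (SE 0.22, adjusted p = 0.0418) and by 0.95 in C3H/HeJ (SE 0.22, adjusted p = 0.00616), and its A/J call was lost without irradiated array 2 or 3 or control 1 or 3 (adjusted p = 0.102 to 0.161) and, narrowly, without irradiated C57BL6/J array 3 (0.0503). It was also lost without the 3 arrays high in keratins (0.11), with no filter (0.0699) and with the 2 groups alone (0.0735). Ptgir was dim, with controls close to the overall median of 4.98. It read 5.40, 5.97 and 5.84 in irradiated A/J against 5.00, 5.45 and 4.76 in controls, which overlapped. In C3H/HeJ it read 5.58, 5.93 and 5.95 in irradiated arrays against 4.63, 5.01 and 4.96 in controls. The C57BL6/J changes of Ptger2 and Ptgir were 0.10 and 0.12 (adjusted p = 0.74 and 0.824). Ptger3, another prostaglandin E2 receptor, changed by 0.72 in A/J and 0.65 in C3H/HeJ, with adjusted p of 0.0528 and 0.0801. It lay above the overall median in irradiated arrays only, so, like Hpgds, it entered the test only through them. Ptgfr, the prostaglandin F2 alpha receptor, changed by -0.05, -0.37 and -0.18 in A/J, C57BL6/J and C3H/HeJ, and Tbxa2r, the thromboxane receptor, by 0.09, 0.13 and 0.09, none called. Of 3 tested receptors for leukotrienes and lipoxins none was called. Among them Cysltr1, a receptor for the products of Ltc4s, changed by 0.19, 0.85 and 0.55 in A/J, C57BL6/J and C3H/HeJ (adjusted p = 0.665, 0.0894 and 0.17).

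**Figure D4:**
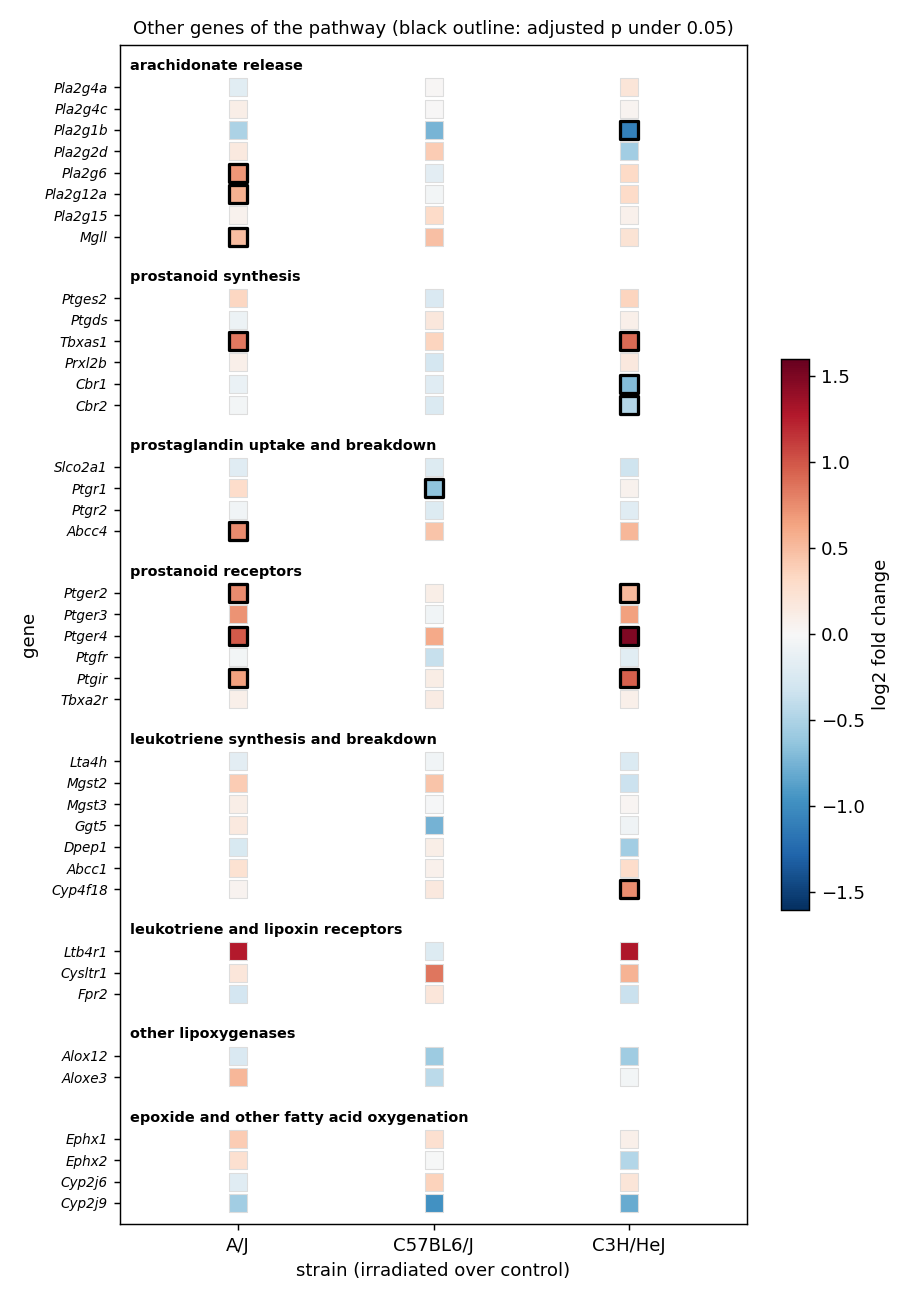
Log2 fold change, irradiated over control, of the 40 tested pathway genes (rows, grouped by role) in each strain (columns), as a colour from blue for lower to red for higher, with a black outline where the adjusted p is under 0.05. The outlined prostanoid receptors lie at 0.66 to 0.98 in A/J and at 0.52 to 1.49 in C3H/HeJ, and no leukotriene or lipoxin receptor is outlined.

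Among 6 other genes of prostanoid synthesis, Tbxas1, which makes thromboxane, rose in irradiated A/J by 0.84 (SE 0.25, adjusted p = 0.0215) and in irradiated C3H/HeJ by 0.90 (SE 0.25, adjusted p = 0.0159). It read 6.35, 6.93 and 7.25 in irradiated A/J against 6.30, 5.68 and 6.03 in controls, and 7.21, 6.87 and 7.18 in irradiated C3H/HeJ against 6.63, 5.87 and 6.07 in controls. The groups were apart in both strains, by a narrow margin, and the call was lost in A/J without irradiated array 2 or 3 or control 2 (adjusted p = 0.0637, 0.0933 and 0.102), with the 2 groups alone (0.058) and without the 3 arrays high in keratins (0.119), and in C3H/HeJ without irradiated array 1 or 3 or control 2 or 3 (0.0522 to 0.07). Cbr1 and Cbr2, carbonyl reductases that can convert prostaglandins among other substrates, fell in C3H/HeJ by 0.69 (SE 0.12, adjusted p = 0.00106) and 0.47 (SE 0.11, adjusted p = 0.00765). With no scaling these were -0.01 and -0.19 and were not called, Cbr1 was not called after median centring (adjusted p = 0.0961), and Cbr2 was not with the 2 groups alone (adjusted p = 0.0727). Platelet markers, whose cells are rich in Tbxas1, summed to 869 to 1210 in irradiated A/J against 910 to 1160 in controls and to 1010 to 1090 in irradiated C3H/HeJ against 823 to 1490 in controls, overlapping in both. In C57BL6/J, where Tbxas1 changed by 0.35 and was not called, they summed to 1190 to 2380 against 3230 to 3580 (3 of 6 lower). Of 10 macrophage genes, 7 were higher in A/J, 2 in C57BL6/J and 8 in C3H/HeJ. The part of these cells in the Tbxas1 values was not tested.

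Among 8 tested genes that free arachidonic acid or its precursors, 3 rose in irradiated A/J. They were the phospholipases Pla2g6 (0.70 ± 0.13, SE, adjusted p = 0.00133) and Pla2g12a (0.57 ± 0.16, SE, adjusted p = 0.0167) and the monoacylglycerol lipase Mgll (0.49 ± 0.14, SE, adjusted p = 0.0166). Without the 3 arrays high in keratins Pla2g6 was called and the other two were not (adjusted p = 0.0502 and 0.0588). The Pla2g12a call also ended without A/J irradiated array 3 or control 3 (0.0656 and 0.0507), and that of Mgll without irradiated array 2 or control 2 (0.0861 and 0.0623) and with the 2 groups alone (0.0851). In C3H/HeJ the secreted phospholipase Pla2g1b fell by 1.09 (SE 0.34, adjusted p = 0.0287), with 5.17, 4.78 and 6.13 in irradiated arrays against 6.14, 6.53 and 6.68 in controls. Irradiated array 3 was close to the controls, and the call was lost with no scaling (-0.53, adjusted p = 0.205), under median centring (-0.91, adjusted p = 0.0513), with the 2 groups alone (adjusted p = 0.0563) and without irradiated array 1 or 2 or control 2 or 3 (adjusted p = 0.0731 to 0.133).

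Of 7 tested genes of leukotriene synthesis and breakdown beyond the members, 1 was called. Cyp4f18, a mouse cytochrome that oxidises leukotriene B4, rose by 0.74 in C3H/HeJ (SE 0.25, adjusted p = 0.0413), a call lost without C3H/HeJ irradiated array 2 or 3 or control 1 or 2 (adjusted p = 0.107 to 0.167) and, narrowly, without A/J control 1 (0.0502). It was also lost with no filter, with array weights, with the 2 groups alone and without both irradiated A/J array 1 and irradiated C3H/HeJ array 3 (0.0683 to 0.173). Lta4h, the hydrolase that turns leukotriene A4 into leukotriene B4 and so competes with Ltc4s for it, changed by -0.17, -0.06 and -0.23 in A/J, C57BL6/J and C3H/HeJ (adjusted p = 0.3, 0.835 and 0.168). Ltb4r1, the main leukotriene B4 receptor, changed by 1.27, -0.22 and 1.29 with an SE of 0.50, and was not called (adjusted p = 0.0754, 0.856 and 0.0729). Only irradiated A/J and C3H/HeJ arrays lay above the overall median for Ltb4r1, so it too entered the test only through irradiated arrays. None of the 2 other lipoxygenases and 4 epoxide or fatty acid oxygenation genes tested was called in any strain.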

How the data were processed

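Lung RNA of 18 mice or samples was measured on single-colour arrays, and samples were grouped by the strain and treatment that the labels give. The deposited values are linear signal intensities that the authors made with MAS5, per the submitters' processing notes, with its version and scaling not given in the sources used here. From them the 64 control probe sets of 45101 were removed, and log2(signal + 7) was taken, where 7 is the rounded 25th percentile of all values. These log2 values were then quantile-normalized between arrays. Probe sets were kept (25746) where at least 3 of the 18 arrays exceeded 4.98, the median of all values, and the brightest on average stood for its gene. Of the probe sets, 34958 were paired with 1 gene symbol in the platform annotation, 932 with several and 9160 with none.

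A model of 6 group means with 12 residual degrees of freedom was fitted in limma 3.58.1 (R 4.3.3) over 12412 genes, with moderated two-sided tests and Benjamini-Hochberg adjustment, and again over all kept probe sets. The procedure was tested on simulated data. Array 5' to 3' ratios came from the control probe sets, and marker sums are sums of linear normalized signals. No 2 arrays held identical values, and arrays of a group correlated at 0.96 to 0.979. Equal replicate numbers did not pair irradiated and control arrays (correlations of deviations from -0.08 to 0.10), so no block was used. The rule for named genes took all members with every probe set, and of the pathway list the called genes, at most 4 per role and strain, with genes that act on a member's product. Members, lists and tests were chosen with earlier results of these data known. Alternatives were other scalings, pseudocounts and filters, fits of 2 groups alone, all probe sets, a replicate block, array weights and arrays left out. Leaving out irradiated A/J array 1 together with irradiated C3H/HeJ array 3 was chosen after seeing the data. Changes in a whole lung sample are relative to each array's total signal.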

Additional observations from a re-analysis of the deposited data

Results flagged for a closer look

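The change of Ptgis with irradiation differed between strains by a test of the difference itself. The C57BL6/J change minus the A/J change was -0.93 ± 0.22 (SE, limma adjusted p = 0.0256), with -0.14 in C57BL6/J and 0.78 in A/J. Irradiated A/J arrays were higher than their controls in 3 of 3 arrays, while irradiated C57BL6/J arrays, at 9.72, 9.85 and 9.96, overlapped their controls, at 10.14, 9.93 and 9.89, with arrays 1 and 2 below every control. The call was lost in 7 of 29 alternatives. Irradiated A/J arrays also had actin ratios of 0.413 to 0.551, against 0.73 to 0.742 in A/J controls. Their trimmed mean signals of 176, 128 and 80.8 gave the order of their Ptgis values. The part of RNA quality or signal level in this difference was not tested.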

How the results depend on the processing

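The Hpgd falls in A/J and C3H/HeJ and the Ltc4s rises in A/J and C3H/HeJ kept their direction and their call under every alternative run. Without scaling the median of all genes shifted by 0.56, 0.06 and 0.61 in A/J, C57BL6/J and C3H/HeJ, and after median centring by 0.33, 0.01 and 0.24, so signs of small changes follow the scaling. In counts of members called, C57BL6/J (1) became 0 in a fit of its 2 groups alone and 2 without both irradiated A/J array 1 and irradiated C3H/HeJ array 3. Its count of member probe sets (1) became 2 with pseudocount 32 and without both arrays, and 0 with 2 groups alone and without the 3 arrays high in keratins. The difference C57BL6/J minus A/J (1 member) became 2 with pseudocount 32, all probe sets, array weights or without both arrays, and 0 without the keratin arrays. C3H/HeJ minus A/J (0) became 3 with array weights and 2 without both arrays, and C3H/HeJ minus C57BL6/J (0) became 1 with no scaling, pseudocount 32, array weights or without both arrays and 2 with median centring. Between untreated strains, C57BL6/J minus A/J (1) became 0 and C3H/HeJ minus A/J (3) became 1 with no scaling, and C3H/HeJ minus C57BL6/J (1) became 2 with array weights or without both arrays and 0 without the keratin arrays. Pathway genes called in A/J (8) became 15 with median centring and 3 without the keratin arrays, and in C3H/HeJ (8) 13 with no scaling. In C57BL6/J (1) they became 0 with no scaling, median centring, 2 groups alone or without the keratin arrays, 2 with no filter, a filter of 9 of 18 arrays or array weights, and 3 with pseudocount 32 or without both arrays. Signs reversed, without a call, for Ptgs2 in A/J (0.43 with no scaling, 0.20 with median centring, 0.22 without the keratin arrays) and in C57BL6/J (0.02 with no scaling), for Ptges in A/J (0.01 with no scaling) and in C57BL6/J (-0.02 with array weights), and for the Hpgd difference C3H/HeJ minus A/J (-0.00 without the keratin arrays). Apart from fits with fewer samples, genes or probe sets, the cause was not tested.

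With 1 array left out, members called numbered 3 to 3 in A/J, 1 to 2 in C57BL6/J and 4 to 6 in C3H/HeJ, and member probe sets 4 to 5, 1 to 2 and 5 to 9. Pathway genes numbered 5 to 10, 1 to 4 and 5 to 11. Differences between strains numbered 0 to 2, 0 to 1 and 0 to 3 for C57BL6/J minus A/J, C3H/HeJ minus A/J and C3H/HeJ minus C57BL6/J, and untreated differences 1 to 1, 1 to 3 and 1 to 2. Signs reversed within these ranges for Ptgs2 in A/J (-0.69 to 0.22) and C57BL6/J (-0.17 to 0.15), Ptges (-0.11 to 0.15), Hpgds (-0.17 to 0.84), Ptger2 (-0.01 to 0.23) and Ptgir (-0.09 to 0.31) in C57BL6/J, and the Hpgd difference C3H/HeJ minus A/J (-0.00 to 1.07).

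With the replicate number as a block, members called stayed at 3, 1 and 6 and the difference C57BL6/J minus A/J went to 0 members (Ptgis -0.93, adjusted p = 0.0743). The block changed no other member count among the irradiation effects and their differences between strains. It was not run between untreated strains, since no block holds arrays of 2 strains. Dim probe sets, above all those of Hpgds and Alox15, and in the pathway list those of Ptger3, Ltb4r1 and Ptgir, limit what could be detected.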
